A study of Homo sapiens with 3 samples.

Results

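The clustered genes of histones H1, H3 and H4 were followed in a human embryonic kidney line after exposure to BDE-209 (decabromodiphenyl ether, a brominated flame retardant). The genes were taken by name as the replication-dependent members of these families: 5 H1 genes, 12 H3 genes and 13 H4 genes, 30 transcripts in all. Of these, 20 were among the 25443 transcripts with a value in at least 1 sample, and 10 had no value in any. The set is defined by gene names and not by a measured value, and it was proposed with earlier results of these data known. The cells are labelled HEK293, and the study names them HEK293T, which carries the SV40 large T antigen. There were 3 samples with 1 sample in each group, all grown for 48 h in the same serum-containing medium: BDE-209 at 1e-06 M in 0.001 M DMSO (dimethyl sulfoxide, the solvent), DMSO alone at 0.001 M, and a negative control. The treatment label of the control is worded ambiguously, and its title and the treatment protocol give it neither agent. PolyA RNA was read from a single end over 49 bases. Levels were deposited as RPKM, the reads on a RefSeq transcript divided by its length and by the sample's mapped reads, and a transcript without a read is absent from a file. With no replicate in any group, no difference below has a replicate check, and in bulk RNA fewer cells in S phase and less histone RNA per cell cannot be told apart.

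Histones H3 and H4 form the core of the nucleosome together with H2A and H2B, and the linker histone H1 binds the DNA where it enters and leaves the core. The clustered genes are transcribed when DNA is replicated in S phase, so that new DNA can be packed. Their mRNAs have no introns and, as a rule, no poly(A) tail: the transcript ends just after a stem-loop that is bound by the stem-loop binding protein, SLBP, and the tail is replaced in its functions by that complex. Molecules without a tail are largely lost when RNA is selected by poly(A), as it was here.

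The stem-loop was looked for in the annotated transcripts, because it is the feature that the families share and that the poly(A) selection bears on. A position was available for 29 of the 30 genes in the GENCODE annotation of GRCh37 (hg19), the build to which the reads were aligned. It was that of the gene's shortest protein-coding transcript with 1 exon, and other transcript forms were not looked at. HIST1H4F (NM_003540) had no such position and was named only. Of the 29 positions, 25 lay on chromosome 6. In the last 100 bases of all 29 transcripts exactly 1 window began with GG and had 6 bases that pair perfectly with 6 bases beyond a loop of 4. Its last base lay 3 to 11 bases before the annotated end, a distance that holds for the shortest transcripts chosen. The sites below are read 5′ to 3′ in the sense of the gene, with the stem and loop in capitals, for the 2 genes with the most reads, the 3 genes in the study's lists, the H4 genes with near-identical copies, and HIST1H1A as an example of the loop TTTA.
HIST1H1C, chr6:26055972-26055987, minus strand: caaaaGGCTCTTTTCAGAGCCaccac
HIST1H1D, chr6:26234445-26234460, minus strand: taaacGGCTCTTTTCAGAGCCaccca
HIST1H1A, chr6:26017265-26017280, minus strand: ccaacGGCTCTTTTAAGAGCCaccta
HIST1H3E, chr6:26225824-26225839, plus strand: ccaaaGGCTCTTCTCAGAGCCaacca
HIST1H4C, chr6:26104545-26104560, plus strand: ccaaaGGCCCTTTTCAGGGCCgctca
HIST1H4J, chr6:27792237-27792252, plus strand: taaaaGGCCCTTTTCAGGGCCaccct
HIST1H4K, chr6:27798956-27798971, minus strand: caaaaGGCCCTTTTTAGGGCCcccac
HIST2H4A, chr1:149804596-149804611, plus strand: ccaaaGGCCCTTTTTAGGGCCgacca
The coordinates are those of the capitals. The stem followed the family: the first arm was GGCTCT in all 5 H1 and all 12 H3 genes and GGCCCT in all 12 H4 genes with a position. The loop was TTTC in 4 H1, 9 H3 and 8 H4 genes. HIST1H3E was the 1 H3 gene with the loop TCTC, and the loop TTTT was found in 3 H4 genes.

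Read numbers were not in the files, and were recovered from the steps of the RPKM values. The recovered totals were 4843629 reads in the negative control, 4782049 in DMSO and 4676798 in BDE-209. These are the totals to which the RPKM values are scaled. They are below the mapped reads that the study's methods tables give and put BDE-209 lowest, which those tables do not, and the reason is not given in the sources used here. On a transcript of 400 bases, about the length of an H4 mRNA, 1 read was worth 0.516, 0.523 and 0.535 RPKM in the same order. For the 20 genes with a read, the length implied by the steps could be set against the annotation, and it came within 39 bases in 19 of them. HIST1H3D (NM_003530) had an implied length of 864 bases against 503 annotated. Of 6 genes taken as marks of HEK293 cells, 5 were at 1 RPKM or more in each sample, and PAX2 was listed in none.

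A total of 20 of the 30 genes were listed in at least 1 sample, 17 in the negative control, 16 in DMSO and 13 in BDE-209, and 10 were listed in all 3. The reads on all 30 genes came to 136 in the negative control, 130 in DMSO and 146 in BDE-209. Only 2 genes had over 30 reads in the 3 samples together. A further 5 had 10 to 30 reads and 13 had 1 to 9. The genes without a read in any sample were HIST1H1A (NM_005325), HIST1H3C (NM_003531), HIST1H3I (NM_003533), HIST2H3D (NM_001123375), HIST1H4A (NM_003538), HIST1H4B (NM_003544), HIST1H4D (NM_003539), HIST1H4E (NM_003545), HIST1H4F and HIST1H4L (NM_003546). At this depth 0 reads allow up to 3 reads, which on 400 bases is 1.55 to 1.60 RPKM, so a low level of these mRNAs was not detectable. In 7 of the 10, every window of 49 bases occurs once in the genome by exact match. Matches with up to 2 mismatches, which the alignment allowed, were not searched.

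**Figure D1:**
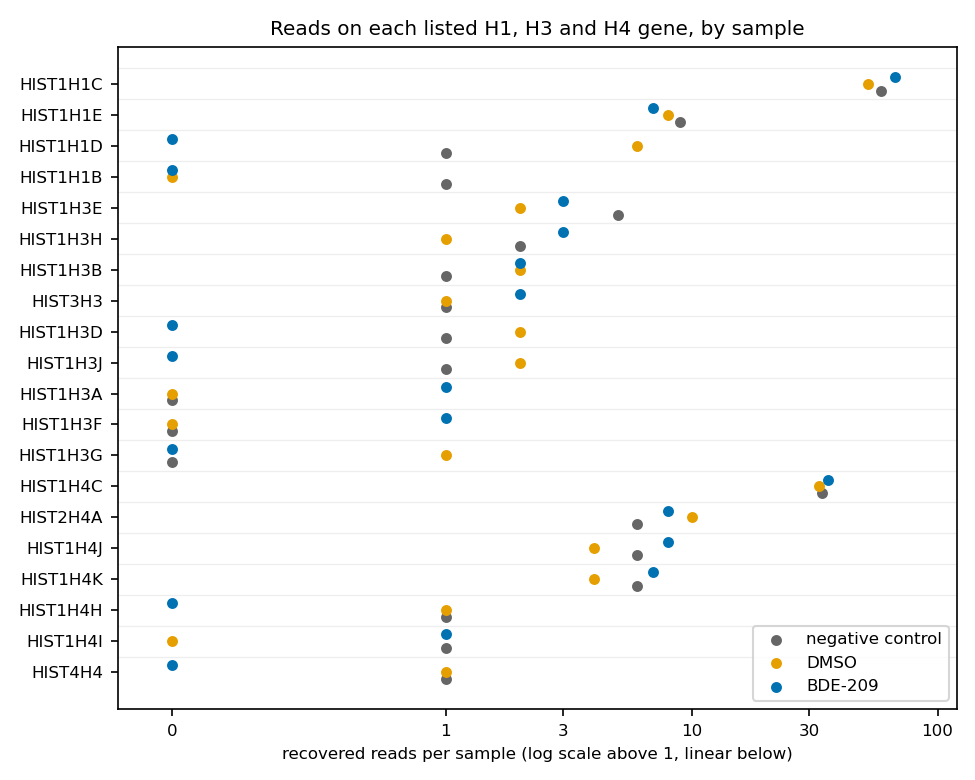
Recovered reads on each of the 20 listed H1, H3 and H4 genes (horizontal axis, log scale above 1 read and linear below) in the negative control, DMSO and BDE-209 samples, 1 point per sample. HIST1H1C with 52 to 67 reads and HIST1H4C with 33 to 36 stand to the right of all other genes, which have at most 10 reads in a sample.

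HIST1H1C carried most of the H1 reads. This gene (NM_005319, chr6:26055968-26056698) encodes the linker histone also called H1.2. It had 59 reads in the negative control, 52 in DMSO and 67 in BDE-209, or 16.6, 14.9 and 19.6 RPKM. The exact 95% Poisson intervals of these levels were 12.7 to 21.5, 11.1 to 19.5 and 15.2 to 24.9 RPKM, so the 3 levels overlapped, with BDE-209 the highest and DMSO the lowest. Intervals here and below cover counting error only. HIST1H1C made up 84.3% of the H1 reads in the negative control, 78.8% in DMSO and 90.5% in BDE-209, and ranked at the 75.0th, 72.5th and 78.1st percentile of the RPKM values listed in each sample.

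The other H1 genes were far lower per length. HIST1H1E (NM_005321), the gene of H1.4, had 9, 8 and 7 reads in the negative control, DMSO and BDE-209, or 2.37, 2.13 and 1.91 RPKM, and these are within counting error of each other. HIST1H1D (NM_005320, chr6:26234440-26235215), the gene of H1.3, had 1 read in the negative control, 6 in DMSO and 0 in BDE-209, or 0.266, 1.62 and 0 RPKM. It is the H1 gene in the study's lists of changed genes, which were made on these samples and are not independent evidence of a direction. The DMSO sample was the high one, and the negative control and BDE-209 differed by 1 read. HIST1H1B (NM_005322), the gene of H1.5, had 1 read in the negative control and none elsewhere.

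No H3 gene reached 6 reads in any sample. The 12 genes encode the replication-dependent forms of H3, of which HIST3H3 (NM_003493) is known for its expression in testis. HIST1H3E (NM_003532) had the highest mean level, with 5 reads in the negative control, 2 in DMSO and 3 in BDE-209, or 2.23, 0.905 and 1.39 RPKM. The intervals of these levels, 0.73 to 5.21, 0.11 to 3.27 and 0.29 to 4.06 RPKM, overlapped, with the negative control highest. It too is in the study's lists, which were made on these samples. HIST1H3H (NM_003536) had 2, 1 and 3 reads, HIST1H3B (NM_003537) 1, 2 and 2, and HIST3H3 1, 1 and 2 in the same order of samples. The remaining H3 genes with a read had 1 to 3 reads over the 3 samples. The order of these genes could not be told from their counts, since each interval held the levels of its neighbours.

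HIST1H4C was the H4 gene with the most reads. All H4 genes encode the same protein from different mRNAs. HIST1H4C (NM_003542, chr6:26104161-26104565) had 34 reads in the negative control, 33 in DMSO and 36 in BDE-209, or 17.999, 17.694 and 19.737 RPKM, with intervals of 12.5 to 25.2, 12.2 to 24.9 and 13.8 to 27.3 RPKM. The samples lay within 3 reads of each other. Its share of the H4 reads was 61.8% in the negative control and 62.3% in DMSO, and it held 36 of the 60 H4 reads in BDE-209. Its mean level of 18.48 RPKM and the 17.02 RPKM of HIST1H1C were not apart by more than their intervals, whereas the intervals of both lay above those of every other H1, H3 and H4 gene in all 3 samples.

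The next H4 genes share their sequence with near-identical copies, and their values are uncertain for that reason. HIST1H4J (NM_021968, chr6:27791870-27792258) had 6 reads in the negative control, 4 in DMSO and 8 in BDE-209, or 3.48, 2.35 and 4.81 RPKM. It is the H4 gene in the study's lists. HIST1H4K (NM_003541, chr6:27798952-27799338) had 6, 4 and 7 reads in the same samples, or 3.50, 2.36 and 4.23 RPKM. The coding sequences of the pair were identical, and 92.1% of the windows of 49 bases in HIST1H4J and 92.6% in HIST1H4K occurred in another of the 30 genes, with 7.9% and 7.4% occurring once in the genome. Whether the same reads were counted for both was not tested. HIST2H4A (NM_003548, chr1:149804221-149804616) had 6 reads in the negative control, 10 in DMSO and 8 in BDE-209, or 3.13, 5.28 and 4.32 RPKM, although each of its 348 windows occurs 2 times in the genome and the study describes the use of uniquely mapped reads. How those reads were placed is not given in the sources used here. Among the other pairs of H4 genes the coding identity ran from 79.0% upward with a median of 83.8% over all 66 pairs, and among H3 genes from 80.9 to 88.7%. In total 23 of the 29 genes with a position had all windows once in the genome.

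The question of the first comparison was whether BDE-209 changes the histone genes beyond its solvent. In BDE-209 against DMSO, 5 of the 19 genes with a value were past 2-fold on the log2(RPKM + 0.5) scale, beside 1.74% of all transcripts. They were HIST1H1D, HIST1H3J (NM_003535), HIST1H4H (NM_003543) and HIST4H4 (NM_175054), which were lower in BDE-209 (4 genes, beside 0.813% of all transcripts), and HIST1H4I (NM_003495), which was higher (1 gene, beside 0.922%). All but HIST1H1D are named here after their values were seen. The reads behind them were few: in DMSO and BDE-209, HIST1H3J had 2 and 0 reads, HIST1H4H and HIST4H4 had 1 and 0, and HIST1H4I had 0 and 1. At the pseudocount of 0.5 RPKM, 1 read against none on a transcript of 400 bases is already past 2-fold, as 1 read is worth over 0.5 RPKM there. HIST1H1D had 6 reads in DMSO and none in BDE-209, a log2 difference of -2.08. With the 0 counted as 3 reads it was at least 1.96-fold lower, and the 95% interval of its log2 ratio of reads, which also covers the counting error of the 6 reads, had no lower limit and ended at -0.20.

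Of these genes, HIST1H1D alone had an unadjusted exact binomial p under 0.05 in BDE-209 against DMSO (p = 0.0313, adjusted p = 1.0 over all transcripts by Benjamini-Hochberg), beside 4.54% of all transcripts at that unadjusted level. This exact test compares the reads of 2 libraries and not the conditions. None of the 19 genes with a value passed after adjustment, beside 0.0528% of all transcripts. Of the 19, 12 had at most 3 reads in the sample with more, too few for even an unadjusted p under 0.05. The absence of calls is thus no sign of unchanged levels. The better covered genes lay closer together. HIST1H1C gave a log2 ratio of reads of 0.40 (95% interval -0.15 to 0.95) in BDE-209 against DMSO, HIST1H4C 0.16 (-0.56 to 0.88) and HIST1H4J 1.03 (-0.87 to 3.21). HIST1H3E, with 3 reads against 2, gave 0.62 (-2.51 to 4.20). All 4 intervals held 0, and those of HIST1H4J and HIST1H3E also held a rise of 2-fold.

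The effect of the solvent was asked by DMSO against the negative control. There 2 of the 18 genes with a value were past 2-fold, beside 1.57% of all transcripts: HIST1H1D was higher in DMSO (1 gene, beside 0.728%) and HIST1H4I, with 1 read in the negative control and 0 in DMSO, was lower (1 gene, beside 0.838%). HIST1H1D had 6 reads against 1, a log2 ratio of reads of 2.60 with an interval from -0.44 to 8.13 (exact binomial p = 0.0686, adjusted p = 0.843). HIST1H3E, with 2 reads in DMSO against 5, was at -0.96 on the log2(RPKM + 0.5) scale, just short of 2-fold, and its log2 ratio of reads was -1.30 (-4.70 to 1.31). HIST2H4A, at 10 reads against 6, gave 0.76 (-0.85 to 2.50). None of the 18 genes with a value had an unadjusted exact binomial p under 0.05, beside 6.29% of all transcripts, and none passed after adjustment, beside 0.411%. Of the 18, 10 had at most 3 reads in the sample with more, too few for such a p.

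The joint exposure was read from BDE-209 against the negative control. Again 2 of the 19 genes with a value were past 2-fold, beside 1.5% of all transcripts, and both were lower in BDE-209 (beside 0.766%), namely HIST1H4H and HIST4H4, each with 1 read in the negative control and 0 in BDE-209. None was past 2-fold upward, beside 0.734%. HIST1H1C gave a log2 ratio of reads of 0.23 (-0.29 to 0.76) and HIST1H4C 0.13 (-0.58 to 0.85). None of the 19 genes with a value had an unadjusted exact binomial p under 0.05, beside 6.5% of all transcripts, and none passed after adjustment, beside 0.527%. Of the 19, 12 had at most 3 reads in the sample with more, too few for such a p. The 3 comparisons share samples: the 6 DMSO reads of HIST1H1D enter both comparisons in which that gene was past 2-fold.

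Calls were made on genes with few reads. All H1, H3 and H4 genes past 2-fold had at most 6 reads in the sample with more. Of the H1, H3 and H4 genes with 10 or more reads none was past 2-fold in any comparison. In BDE-209 against DMSO, 4 of 12 histone genes with 1 to 3 reads and 1 of 4 with 4 to 9 reads were past 2-fold, while among all transcripts the shares in these classes were 4.15 and 4.12%. They dropped to 1.23% of the transcripts with 10 to 99 reads and 0% of those with 100 or more. The classes match reads and not transcript length, by which RPKM is divided. HIST1H4H, HIST4H4 and HIST1H4I were past 2-fold here on 1 read against 0. Their recovered lengths were 374, 412 and 370 bases, beside a median recovered length of 2635 bases over the transcripts. Whether histone genes exceed transcripts of like length was not tested. With length unmatched, the share of histone genes in the 2 lowest classes was above that of all transcripts with as many reads, on 5 genes of 16. In DMSO against the negative control it was 1 of 10 and 1 of 5, beside 3.69 and 3.57% of all transcripts, and in BDE-209 against the negative control 2 of 12 and 0 of 5, beside 3.72 and 3.17%.

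**Figure D2:**
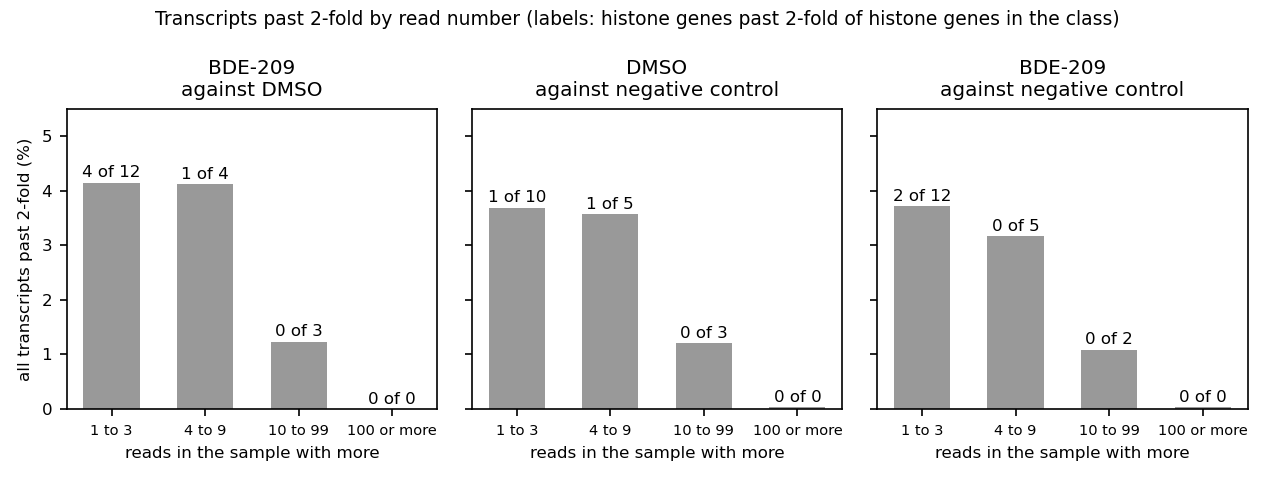
Bars give the percentage of all transcripts past 2-fold on log2(RPKM + 0.5) by the reads in the better covered sample, for the 3 comparisons, and the label on each bar gives the histone genes past 2-fold of those in the class. In BDE-209 against DMSO the bars fall from 4.15% at 1 to 3 reads to 0% at 100 or more, and the 5 H1, H3 and H4 genes past 2-fold sit in the 2 lowest classes.

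Summing the reads of a family gave narrower intervals. In BDE-209 against DMSO the H1 genes had 74 reads against 66, 1.15-fold per mapped read with a 95% Clopper-Pearson interval of 0.81 to 1.62. The H3 genes had 12 against 11, 1.12-fold (0.45 to 2.79), and the H4 genes 60 against 53, 1.16-fold (0.79 to 1.71). All 30 genes together gave 1.15-fold (0.90 to 1.47). This interval leaves out a 2-fold change of the summed reads in either direction between these libraries. It does not speak for each gene, as 10 of the 30 had no read. HIST1H1C gave 67 of the 146 reads in BDE-209 and 52 of the 130 in DMSO, and HIST1H4C 36 and 33. Without HIST1H1C the sum was 1.04-fold (0.75 to 1.43). The intervals of H4 and of all 30 genes take the reads as independent. Whether HIST1H4J and HIST1H4K share reads was not tested. The H1 sum rested on HIST1H1C: without it the other H1 genes had 7 reads in BDE-209 against 14 in DMSO, 0.51-fold with an interval of 0.17 to 1.35, which turns the direction and includes 1.

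The sums of DMSO against the negative control were closer still. The H1 genes had 66 reads against 70, 0.95-fold (0.67 to 1.36), the H3 genes 11 against 11, 1.01-fold (0.40 to 2.58), and the H4 genes 53 against 55, 0.98-fold (0.66 to 1.45). In BDE-209 against the negative control, the H1 sum was 1.09-fold (0.78 to 1.54), the H3 sum 1.13-fold (0.46 to 2.83) and the H4 sum 1.13-fold (0.77 to 1.66). All family intervals held 1. Without HIST1H1C the H1 genes had 14 reads in DMSO and 11 in the negative control, 1.29-fold (0.54 to 3.14), and 0.66-fold (0.22 to 1.86) in BDE-209 against the negative control, again against the direction of the sum. Without HIST1H3E the H3 genes had 9 reads in DMSO and 6 in the negative control, 1.52-fold (0.48 to 5.19), and 1.55-fold (0.49 to 5.30) in BDE-209 against the negative control. The median log2 difference over the genes with a value was 0.15 in BDE-209 against DMSO (19 genes), -0.01 in DMSO against the negative control (18 genes) and 0.13 in BDE-209 against the negative control (19 genes), where the medians of all transcripts were 0.01, 0.00 and 0.01.

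**Figure D3:**
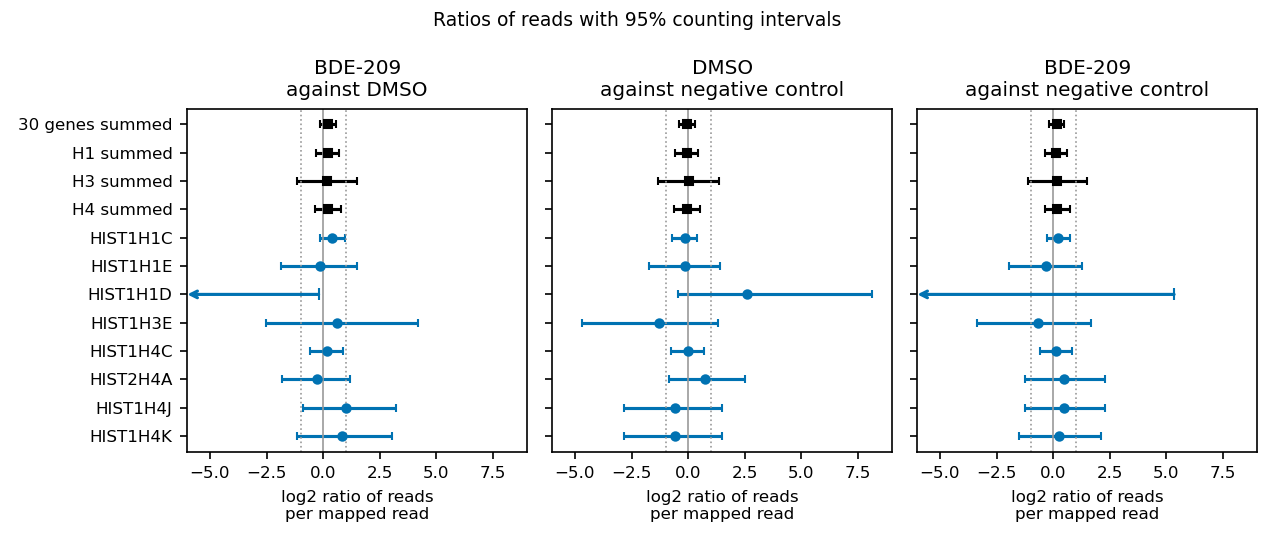
Log2 ratios of reads per mapped read, with 95% Clopper-Pearson intervals that cover counting error only, for the summed families (squares) and for 8 single genes (circles) in the 3 comparisons, with dotted lines at 2-fold and an arrow where 0 reads leave no lower limit. The interval of HIST1H1D in BDE-209 against DMSO ends at -0.20, every other interval drawn crosses 0, and those of the sum of the 30 genes stay inside the 2-fold lines.

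The 2 genes with the most reads had a polyadenylation signal close behind the annotated end. AATAAA, the usual signal for cleavage and addition of a poly(A) tail, was searched on the gene's strand in the 300 bases after the end. It was found for 3 of the 29 genes, measured from the end of the transcript used for the stem-loop. Of 20151 ends of protein-coding genes in the same annotation 14.7% had it, measured from the end of the whole gene record. The 2 shares come from unlike ends and are not directly comparable. The sites are given in GRCh37 with the signal in capitals, because they are the only ones among the 29 genes in this window.
HIST1H1C, chr6:26055942-26055971, minus strand, 9 bases after the end: accactgatctcAATAAAagagctggataa
HIST1H4C, chr6:26104709-26104738, plus strand, 156 bases after the end: gaggtaagcgctAATAAAgtgattggctcc
HIST1H4K, chr6:27798793-27798822, minus strand, 142 bases after the end: cgctctccagtaAATAAAatacccaacaca
HIST1H1C had 178 reads over the 3 samples, HIST1H4C 103 and HIST1H4K 17, and most windows of HIST1H4K occur also in HIST1H4J. Together they held 298 reads, 72.3% of the reads on the 29 genes. The other 26 genes had 0 to 24 reads with a median of 1.5. This is a description of 29 genes in these libraries, and whether the signals are used was not tested.

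**Figure D4:**
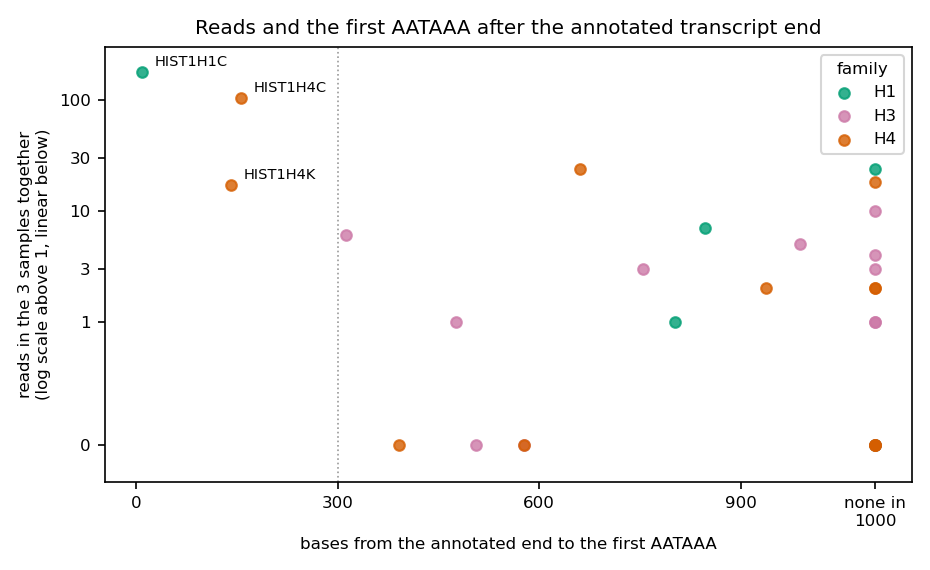
Reads over the 3 samples (vertical axis, log scale above 1 and linear below) against the distance in bases from the annotated end to the first AATAAA on the same strand, for the 29 genes with a position, coloured by family. The dotted line marks 300 bases, and the 3 genes to its left have 178, 103 and 17 reads, whereas genes with no AATAAA in 1000 bases are drawn at the right edge.

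The promoters differed by family in the short elements they hold. RefSeq gave 28 promoters (250 bases before to 50 after the start, GRCh38.p14) for 26 of the 30 genes, and HIST1H3I, HIST1H3J, HIST1H4A and HIST1H4C had none in the table. HIST1H3D and HIST1H3E each had more than 1 promoter, so the 12 H3 promoters do not stand for all the H3 genes. On both strands, AAACACA, an element known from H1 promoters, was in 5 of 5 H1 promoters and in none of the 12 H3 and 11 H4 promoters, beside 5.6% of all 35116 promoters of that length. GGTCCG, part of the H4 element that the factor HINFP binds, was in 11 of 11 H4, 1 of 12 H3 and none of the H1 promoters (all promoters 11.3%). CCAAT was in 5 of 5 H1, 12 of 12 H3 and 3 of 11 H4 promoters (all promoters 34.6%), and TATAAA in 3, 8 and 6 (all promoters 11.5%). The 250 bases before the start are printed for 1 H1 and 1 H4 gene as examples of the family elements, with every match in capitals.
HIST1H1C, GRCh38.p14, chr6:26056471-26056720, minus strand: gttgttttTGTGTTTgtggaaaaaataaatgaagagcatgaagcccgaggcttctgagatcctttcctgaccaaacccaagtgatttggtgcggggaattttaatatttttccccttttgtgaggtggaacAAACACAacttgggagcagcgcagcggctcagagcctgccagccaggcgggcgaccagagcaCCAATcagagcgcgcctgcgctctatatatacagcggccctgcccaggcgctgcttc
HIST1H4J, GRCh38.p14, chr6:27823842-27824091, plus strand: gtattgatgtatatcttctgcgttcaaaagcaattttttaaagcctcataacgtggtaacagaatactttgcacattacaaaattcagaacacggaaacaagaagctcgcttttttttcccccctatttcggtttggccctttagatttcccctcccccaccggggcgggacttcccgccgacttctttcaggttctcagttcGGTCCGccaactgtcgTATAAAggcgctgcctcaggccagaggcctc
HIST1H1C has AAACACA in both orientations and CCAAT. HIST1H4J has GGTCCG a short way before TATAAA. The presence of AAACACA alone does not order the H1 genes by level: HIST1H1B, with 1 read in all samples together, has it in the forward orientation, as HIST1H1C does. HIST1H1A, with no read, has it in the reverse orientation only. A relation of these elements to level was not tested.

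Of the factors that make and process histone mRNA none was past 2-fold or past the adjusted exact binomial test in any comparison. Among all transcripts with 100 or more reads, 0% were past 2-fold in BDE-209 against DMSO. The shares were 0.0322% in DMSO and 0.0323% in BDE-209 against the negative control. The adjusted test was passed by 0.0528, 0.411 and 0.527% of all transcripts in the same order. A count of 0 past 2-fold is thus what nearly all transcripts with 100 or more reads showed. The shares past the adjusted test are over transcripts of any read number. Some listed factors were below 100 reads in every sample, such as HINFP with 54 to 65 and ZCCHC6 with 34 to 37. The transcription list held NPAT, the cyclin E-CDK2 substrate that activates histone genes, HINFP, CASP8AP2, E2F1 and POU2F1, and 0 of the 5 passed in either direction, but CASP8AP2 had only 2 to 4 reads and POU2F1 at most 1 read in a sample, too few to show a change. NPAT was at 15.8, 17.5 and 17.7 RPKM in the negative control, DMSO and BDE-209, and E2F1 at 23.9, 25.3 and 24.4 RPKM. Of 8 processing factors 0 passed: SLBP was at 82.8, 76.5 and 77.2 RPKM, and CPSF3, the endonuclease that cuts the pre-mRNA after the stem-loop, at 67.3, 61.0 and 65.5 RPKM. Of 5 factors of histone mRNA translation and decay 0 passed, with UPF1, the helicase of mRNA decay, at 34.6, 36.3 and 36.3 RPKM and ZCCHC11, a uridylyl transferase, at 31.1, 32.3 and 35.4 RPKM. Of 14 S phase genes 0 passed, and their median level was 90.7 RPKM in the negative control, 87.5 in DMSO and 84.2 in BDE-209. Among them, MCM7, a subunit of the replicative helicase, was at 192, 190 and 191 RPKM and PCNA, the sliding clamp, at 188, 195 and 183 RPKM. The S phase median lay above the RPKM of HIST1H1C and HIST1H4C in each sample.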

How the data were processed

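RNA-seq of 3 samples (1 per group, grouped by the labels) was used. Per the study's methods, SOAPaligner 2.21 placed the 49-base reads on hg19 with up to 2 mismatches, and only reads that mapped uniquely were kept. The values deposited by the authors are RPKM of RefSeq transcripts. How reads shared by isoforms were counted is not given in the sources used here. Transcripts absent from a file were set to 0.

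From there, the read total that each sample's RPKM values are scaled to was found as the value at which RPKM steps become whole reads on whole lengths (score 0.717, next best 0.153, on 650 transcripts), and reads as the smallest whole numbers that meet the values of all samples. They are lower bounds, 5 transcripts had no solution, and the recovered reads summed to 119.2 to 119.3% of the totals. Scripts were tested on simulated data. Calls were 2-fold on log2(RPKM + 0.5). Recovered reads were compared by an exact two-sided binomial test with Benjamini-Hochberg adjustment over all transcripts. NOISeq, which the study used, draws its noise by simulation and was not used. Software was numba 0.67.0, matplotlib 3.10.9, pandas 2.3.3, scipy 1.17.1 and numpy 2.4.6 under Python 3.11.15. RefSeq identifiers were matched to names for 24432 of 25443 transcripts and all 30 genes. Positions came from GENCODE 44 lifted to GRCh37, with the shortest protein-coding transcript of 1 exon taken for each gene.

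The genes, lists and tests were chosen with earlier results of these data known. Genes named with values were HIST1H1D, HIST1H3E and HIST1H4J, the 4 of each family with the highest mean RPKM, and any past 2-fold with at least 10 reads. HIST1H3J, HIST1H4H, HIST1H4I and HIST4H4 were added after their values were seen. Of the lists, the 2 genes of highest level and any past 2-fold with at least 10 reads were named. Further listed genes, H1FX among them, were named after their values were seen. For a listed gene with several transcripts, the one with the highest mean RPKM was used. Alternatives covered the pseudocount, filters on RPKM and reads, size factors, the binomial split and the members summed. A mark of other tissues is not reported here.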

Additional observations from a re-analysis of the deposited data

How the results depend on the processing

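With 1 sample per group and few reads per gene, counting error sets what can be seen, and no replicate could be left out. No paired analysis was possible because each group holds 1 sample. The number of H1, H3 and H4 genes past 2-fold depended on how low values were treated. The shares of all transcripts past 2-fold were not computed at the other settings, so the counts below show this dependence only. In BDE-209 against DMSO it was 5, and it became 11 with a pseudocount of 0.1 RPKM, 1 with a pseudocount of 1 RPKM, 1 with a filter at 1 RPKM, 0 with at least 10 reads and 0 when the adjusted exact binomial test was also required. In DMSO against the negative control it was 2, and became 5, 1, 1, 0 and 0 under the same settings. In BDE-209 against the negative control it was 2, and became 8, 0, 0, 0 and 0. With at least 4 reads, a filter chosen after seeing the data, the counts were 1, 1 and 0. HIST1H1D was the gene left in the first 2 comparisons under the pseudocount of 1 RPKM and under the filters at 1 RPKM and 4 reads. Size factors left each of the 3 counts within 1.5 times its value.

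The log2 ratio of the H1 sum changed from 0.20 to -0.97 in BDE-209 against DMSO and from 0.13 to -0.60 in BDE-209 against the negative control when HIST1H1C was left out, which leaves 7 reads against 14 and 7 against 11. The other 28 of the 30 alternatives for family sums stayed inside the interval of the sum, also without HIST1H4K, an alternative chosen after seeing the data. The pseudocount set the size of ratios at few reads: HIST1H1D in BDE-209 against DMSO was at -4.10 with 0.1 RPKM and -1.39 with 1 RPKM, beside -2.08. Across 6 alternatives the binomial test called 0 of the H1, H3 and H4 genes, most of which had too few reads to be called.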

Other observations

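The replacement histone genes, whose mRNAs carry a poly(A) tail, lay above the clustered H1, H3 and H4 genes. H3F3A, a gene of the replacement histone H3.3, was at 624 RPKM in the negative control, 577 in DMSO and 611 in BDE-209, and H3F3B, the other, at 130, 138 and 135 RPKM. Of the 4 replacement histone genes listed (with the linker histones H1F0 and H1FX) 0 were past 2-fold or past the adjusted exact binomial test in any comparison. H1FX was at 99.6, 103 and 82.2 RPKM in the negative control, DMSO and BDE-209. Its log2 difference of -0.33 in BDE-209 against DMSO fell just short of the adjusted test. H1F0 was at 90.3, 101 and 95.7 RPKM. Among all transcripts with 100 or more reads at most 0.0323% were past 2-fold, and at most 0.527% of all transcripts passed the test.

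Of 35 clustered H2A and H2B genes 28 were listed. In BDE-209 against DMSO, 5 were past 2-fold upward and 3 downward, beside 0.922 and 0.813% of all transcripts. In DMSO against the negative control the numbers were 4 and 2, beside 0.728 and 0.838%, and in BDE-209 against the negative control 4 and 2, beside 0.734 and 0.766%. None passed the adjusted exact binomial test in any comparison. Apart from HIST1H2AC and HIST1H2BJ, those past 2-fold had at most 9 reads in the sample with more. Whether they exceed transcripts of like reads and length was not tested. HIST1H2BK was the highest at 78.0, 87.0 and 78.1 RPKM, followed by HIST3H2A at 14.6, 17.3 and 12.1 RPKM. With at least 10 reads, HIST1H2AC was past 2-fold between DMSO (4.60 RPKM) and both the negative control (1.89 RPKM) and BDE-209 (1.17 RPKM), and HIST1H2BJ was past 2-fold lower in BDE-209 (1.78 RPKM) than in DMSO (4.78 RPKM) and the negative control (5.58 RPKM).

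Of the HEK293 marks, VIM was at 299, 296 and 261 RPKM in the negative control, DMSO and BDE-209, and passed the exact binomial test in BDE-209 against DMSO (adjusted p = 0.0096) and against the negative control (adjusted p = 0.000196), without reaching 2-fold. The log2 differences of VIM were -0.18 and -0.20 in the same order, and 0.0528 and 0.527% of all transcripts passed that test. KRT8, KRT18, NEFL and NEFM did not pass it. The marks were chosen to read presence only, and the test compares the reads of single libraries and not the conditions. Of the marks of other tissues, PTPRC and INS were listed in no sample, and ALB was at 0.09 RPKM in each.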
